A study of Mus musculus with 4 samples.

Results

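Potassium channel genes were compared between the anterior and posterior lobes of the developing mouse cerebellum. They were taken by name, as every probe of the array whose gene symbol begins with KCN, followed by the letters of a family and a member number. This gave 165 probes of 89 genes among the 45281 probes of 30854 gene symbols on the chip. A test was run on 77 of these probes, which cover 51 genes, and the other 88 were too dim for one. The rule uses names and no measured value, but the members were chosen with earlier results of these data known. The array prints the symbols in capitals, and all 89 are current mouse symbols in RefSeq, written here in mouse style.

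Potassium channels let potassium ions leave or enter a cell and so set its resting potential, the shape of its action potentials and the pauses between them. The voltage-gated families (Kcna to Kcnd, Kcnq, Kcnh) open on depolarization, the inward rectifiers (Kcnj) pass current near rest, the tandem-pore channels (Kcnk) carry leak current, and the calcium- and sodium-activated channels (Kcnma, Kcnn, Kcnt) open as these ions accumulate. Auxiliary subunits steer the pore-forming proteins to the membrane or alter their gating. In the cerebellum these channels are known for the fast, regular firing of Purkinje cells, the resting state of granule neurons and the potassium buffering of Bergmann glia.

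RNA came from untreated Swiss mice at postnatal day 7 (PN7), the age at which granule neurons are still being produced in the external granule layer. The anterior lobe and the posterior lobe were dissected apart, and 2 samples of each were hybridized to Illumina whole-genome mouse arrays, 1 array per sample. The study asked which genes differ between the lobes. Nothing in the labels says whether the 2 samples of a lobe came from separate animals, so p-values measure only the spread between these samples, which may be technical.

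Signal is the mean brightness of the beads that carry a probe, quantile normalized between arrays and given on a log2 scale, and a difference is always posterior minus anterior. A probe was tested where at least 2 of the 4 arrays showed it above the negative control probes, at a detection p-value under 0.05. The study's criterion asks for a fold change over 1.2 and a p, before adjustment, under 0.05, and was read from a limma fit over all 21726 tested probes, and the adjusted p is limma's with Benjamini-Hochberg adjustment over the same probes. With 2 arrays in each lobe the smallest p that an exact permutation test (two-sided) can give is 0.33, so a call rests on the spread that limma pools across probes. The number of arrays limits the precision: each tested member rested on 19 to 70 beads per array, and its 95% interval reached a median of 0.30 to either side of the difference. In whole lobes, fewer cells of a type and less RNA per cell cannot be told apart.

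Potassium channel probes past the criterion were mostly lower in the posterior lobe. Of the 77 tested probes 18 were lower and 3 were higher, together 27.3%, where 8.29% of all tested probes passed, 5% lower and 3.3% higher. The 21 probes belong to 15 genes: 12 genes lower, Kcna2 and Kcnk5 higher, and Kcnj6 with probes on both sides. Among the lower genes, Kcnh3 was tested only through its anterior arrays and is given below as a bound. No member passed an adjusted p of 0.05 in limma, the lowest being 0.094, whereas 0.106% of all probes did. The methods' t-test also left no member past the adjusted p. The lobes did not overlap, meaning that both posterior arrays were above or both below the anterior arrays, for 45 member probes, 58.4% against 42.6% of all probes, with 33 of them lower and 12 higher. The median difference of the members was −0.09 on the log2 scale, with 48 probes below 0 and 29 above, while the median of all tested probes was 0.0023. The median size of the difference, without its sign, was 0.18 for the members and 0.10 for all probes.

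The members past the criterion were mostly lower under each normalization tried, and their count moved with the arrays. With a shift of each array to a common 75th percentile in place of quantile normalization, 14 members were lower and 5 higher. There 8.41% of all probes passed, and the share of higher calls over all probes went from 39.7% to 53.5%. The count of 21 was 10 without posterior replicate 1, where 3.59% of all probes passed, 10 without posterior replicate 2, where 3.78% did, and 27 without anterior replicate 1, where 22.1% of all probes passed. Past an adjusted p of 0.05 there were 19 members without anterior replicate 1 (12.3% of all probes) and 3 without anterior replicate 2 (1.17%), each time with a lone anterior array assumed to vary like the rest. All 21 probes kept their sign in every fit that tested them. Where an array was left out this was fixed beforehand, since none of the 21 overlapped between lobes, so it is no sign of stability. Only 5 probes stayed past the criterion whichever array was left out, namely both of Kcng4, the one of Kcnip2, the higher one of Kcnj6 and one of Kcnma1.

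**Figure D1:**
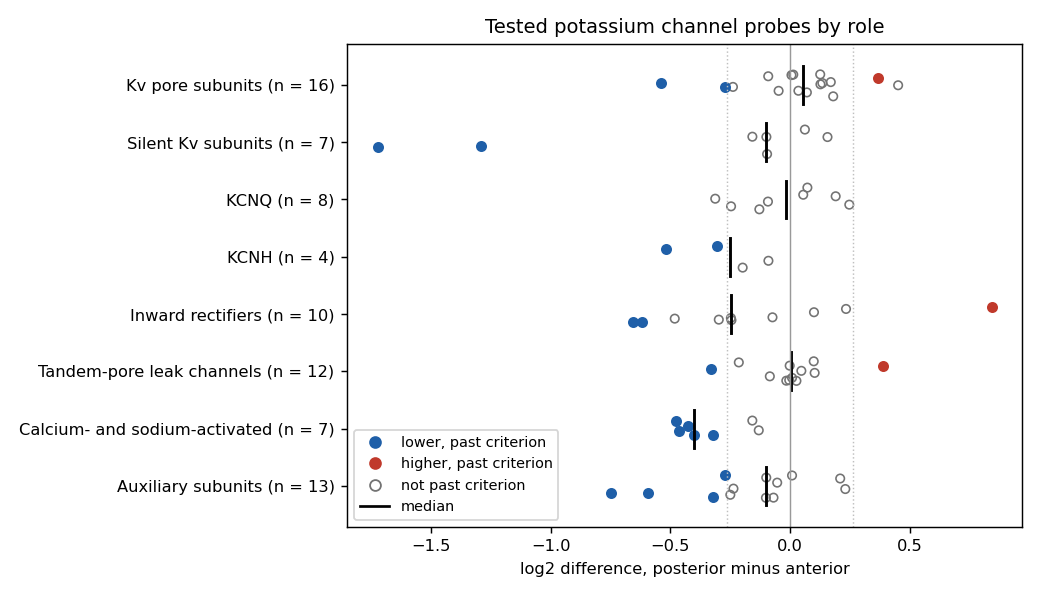
Difference between lobes of each of the 77 tested potassium channel probes (posterior minus anterior, log2 scale), 1 row per family or role, with n the number of probes. Filled points are past the study's criterion, open points are not, black bars are the medians, and dotted lines mark a 1.2-fold difference. All 7 probes of the calcium- and sodium-activated row, which was formed by symbol and includes Kcnu1, lie below 0. Both Kcng4 probes stand far to the left of the other silent subunits.

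Kcng4 had the largest difference of any potassium channel gene. It encodes an electrically silent subunit, which forms no channel alone and changes the gating of Kcnb channels that it joins. Its probe ILMN_2895511 had a log2 signal of 10.24 and 11.03 on the anterior arrays and of 8.59 and 9.23 on the posterior arrays. Its probe ILMN_1233788 read 9.31 and 9.66 in anterior and 8.04 and 8.35 in posterior lobes. Both probes were thus brighter on each anterior array than on either posterior array, and the raw intensities showed the same order, with 690.0 and 757.9 against 261.5 and 324.3 for the second probe. The difference was −1.72 ± 0.31 (SE, limma, n = 2 arrays per lobe) for the first probe, 3.30-fold lower in posterior, with an adjusted p of 0.18. It was −1.29 ± 0.18 for the second, 2.45-fold lower, with an adjusted p of 0.094. Without normalization between arrays the adjusted p of the probes in limma was 0.0021 and 0.0031, in the same order. With the 75th percentile shift it was 0.20 and 0.099, and with neqc 0.18 and 0.095. The methods' t-test gave an adjusted p of 0.64 and 0.58, and by that test the first probe missed the criterion. A further Kcng4 probe was detected on no array.

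The 5 other tested probes of silent subunits, for Kcnf1, Kcns1, Kcns2 and Kcnv2, ranged from −0.16 to 0.16 and none passed the criterion. Kcnb2, a delayed rectifier of the family they join, had a difference of −0.09 (95% interval −0.39 to 0.21). Over all members named here without passing the criterion, the adjusted p ran from 0.35 to 0.99.

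The promoter of Kcng4 is printed because this gene carries the largest difference, and that of Kcnma1 follows below for comparison. Each is the RefSeq stretch on GRCm38.p6 from 250 bases before to 50 bases after the transcript start, written in the direction of transcription, with capitals at matches to a searched motif.
Kcng4, chr8:119635631-119635930, minus strand: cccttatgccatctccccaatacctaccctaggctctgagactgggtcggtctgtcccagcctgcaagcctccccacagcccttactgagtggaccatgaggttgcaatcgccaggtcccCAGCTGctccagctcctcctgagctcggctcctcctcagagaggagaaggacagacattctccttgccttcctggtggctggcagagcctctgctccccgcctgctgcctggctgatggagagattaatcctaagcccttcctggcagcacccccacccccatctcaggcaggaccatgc
This promoter has a GC content of 61.3% and 4 CpG pairs, and 38% of all 32851 RefSeq promoters have as many or fewer. The search covered 4 motifs on both strands, which were the GC box GGGCGG, the TATA box TATAAA, the E-box CAGCTG and the homeodomain core TAATTA. The capitals mark its one match, an E-box, which 16.3% of all promoters hold.

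Channels grouped by symbol as calcium- and sodium-activated, with Kcnu1 placed among them, had a negative difference on every tested probe. These differences were smaller in size than those of Kcng4. All 7, from 4 genes, lay between −0.13 and −0.48 (median −0.40). None of the 7 probes overlapped between lobes, as for 42.6% of all tested probes. The 5 that passed the criterion, where 8.29% of all tested probes did, were those of Kcnma1 and Kcnt1 alone. Kcnma1 encodes the BK channel, opened by calcium and voltage together, which repolarizes Purkinje cells after a spike. Its probe ILMN_1256814 read 11.12 and 11.21 in anterior and 10.64 and 10.75 in posterior lobes. The probe ILMN_1244166 read 9.94 and 9.93 against 9.57 and 9.45, and ILMN_2723799 read 9.91 and 10.19 against 9.49 and 9.65. The 3 probes gave nearly the same difference, of −0.47 ± 0.09, −0.43 ± 0.11 and −0.48 ± 0.14 (SE), with adjusted p of 0.20, 0.31 and 0.36 in limma. The first passed the criterion whichever array was left out. The second gave −0.37 without posterior replicate 2 and the third −0.40 without posterior replicate 1, neither past the criterion.

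Kcnt1 encodes the sodium-activated channel Slack, which gives a slow afterhyperpolarization. The probe ILMN_2479273 read 9.62 and 9.50 in anterior and 9.26 and 9.22 in posterior lobes, a difference of −0.32 ± 0.11. The probe ILMN_2923717 read 8.35 and 8.53 against 7.96 and 8.12, a difference of −0.40 ± 0.13. Anterior arrays were the brighter ones on both probes, with adjusted p of 0.44 and 0.42. Each passed the criterion in only 1 of the 4 fits that left out an array. The first lost it without anterior replicate 1 (−0.26), posterior replicate 1 (−0.34) or posterior replicate 2 (−0.30). The second lost it without anterior replicate 2 (−0.31), posterior replicate 1 (−0.32) or posterior replicate 2 (−0.48). Kcnn1, a small-conductance calcium-activated channel, had a difference of −0.16 (95% interval −0.43 to 0.12) and Kcnu1 one of −0.13 (−0.44 to 0.18). Kcnn2, the small-conductance channel best known from Purkinje cells, was detected on no array.

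The Kcnma1 promoter, shown with the same marks, is richer in CpG than that of Kcng4.
Kcnma1, chr14:24004156-24004455, minus strand: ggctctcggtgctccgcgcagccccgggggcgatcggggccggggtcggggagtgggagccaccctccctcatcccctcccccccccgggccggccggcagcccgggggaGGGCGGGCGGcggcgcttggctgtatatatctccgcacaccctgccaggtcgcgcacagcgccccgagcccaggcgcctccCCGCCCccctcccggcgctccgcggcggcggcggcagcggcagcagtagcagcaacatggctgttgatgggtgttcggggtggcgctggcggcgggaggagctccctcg
It has a GC content of 78% and 36 CpG pairs, and 94.4% of all promoters have as many or fewer. Its capitals mark 3 GC boxes, of which the first and second overlap. A GC box stood in 35.7% of all promoters, in 49.4% of the 89 promoters of the 64 member genes in the RefSeq table, and in 9 of the 18 promoters (50%) of 11 genes with a probe past the criterion and lower. The homeodomain core was in 5.29% of all promoters and in none of those 18, the TATA box in 13.6% and 5.56%, and the E-box in 16.3% and 16.7%. These are matches of letters in a short window and say nothing of binding.

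Auxiliary subunits had 4 of 13 tested probes lower past the criterion, none higher, and a median of −0.10. The 3 calcium sensors that bind Kcnd (Kv4) channels and had a tested probe were all among them. Kcnip1 (KChIP1) read 8.90 and 9.13 in anterior and 8.05 and 8.47 in posterior lobes. Kcnip2 read 7.50 and 7.76 against 7.01 and 7.06, and was detected on only 1 of the 2 posterior arrays. Kcnip3, also known as calsenilin or DREAM, read 11.85 and 11.96 against 11.65 and 11.61. No posterior array reached an anterior one in any of the 3, which their selection by the criterion largely fixes. Over all tested probes, 42.6% did not overlap between lobes. The differences were −0.75 ± 0.18, −0.59 ± 0.12 and −0.27 ± 0.08 (SE), with adjusted p of 0.29, 0.23 and 0.37 in limma. Kcnip1 missed the criterion without posterior replicate 1, at −0.54. Kcnip3, whose fold of 1.21 lies close to the threshold, kept the criterion only without anterior replicate 1. It had −0.22 without anterior replicate 2, −0.29 without posterior replicate 1 and −0.25 without posterior replicate 2. Kcnip4 had no tested probe, since one of its probes was detected on 1 array and the other on none.

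Kcnab1 encodes a beta subunit that gives Kcna (Kv1) channels fast inactivation. Its probe ILMN_1216469 read 11.68 and 11.67 in anterior and 11.33 and 11.37 in posterior lobes, a difference of −0.32 ± 0.07 with an adjusted p of 0.28. Here the arrays of a lobe lay very close together, and the call was lost only without posterior replicate 1, at −0.30. The probe ILMN_2915671 had a difference of −0.25, short of the fold threshold, and the dimmer ILMN_2618169 one of 0.21. Kcnab2, the other main Kv1 beta subunit, read 11.49 and 11.54 against 11.45 and 11.39, a difference of −0.10 with an interval from −0.29 to 0.09. Kcnmb4 is the neuronal beta subunit of the BK channel. Its probe ILMN_3028187 read 10.27 and 10.67 against 10.31 and 10.53, a difference of −0.05 (−0.45 to 0.34). Its probe ILMN_3101339 read 10.68 and 10.85 against 10.71 and 10.83, a difference of 0.0086 (−0.25 to 0.26). The lobes overlapped on both, in contrast to the 3 probes of the Kcnma1 pore. For Kcne1, a small single-pass subunit, one probe had 0.23 and another −0.24, neither past the criterion.

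**Figure D2:**
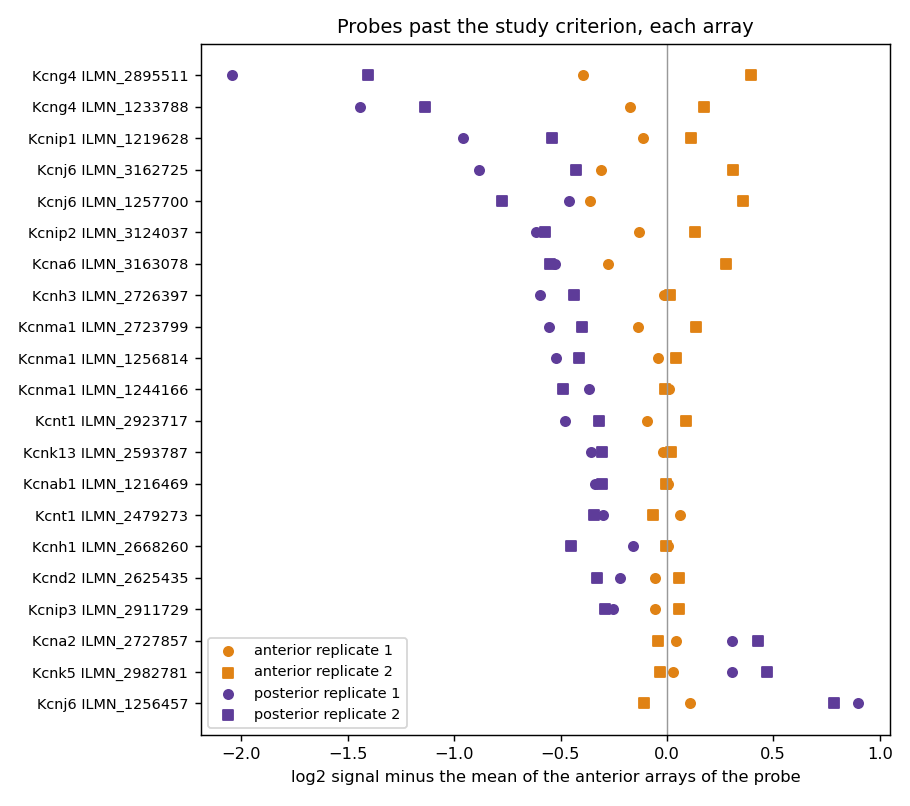
Log2 signal of the 21 potassium channel probes past the study's criterion on each of the 4 arrays, given relative to the probe's mean over the 2 anterior arrays (orange), with posterior arrays in purple, circles for replicate 1 and squares for replicate 2. No probe overlaps between lobes, which the selection of these probes by their difference largely fixes. The 18 lower probes span differences from −0.27 to −1.72.

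Pore-forming voltage-gated subunits of the Shaker, Shab, Shaw and Shal families had the most tested probes, 16 of 12 genes, and a median difference of 0.05. Only 3 passed the criterion, 1 higher and 2 lower. Kcna2, a low-threshold Kv1 subunit of axons and of basket cell terminals, read 8.43 and 8.34 in anterior and 8.69 and 8.81 in posterior lobes. It was higher on both posterior arrays, by 0.37 ± 0.12 (SE, 1.29-fold) with an adjusted p of 0.42. The call was lost without posterior replicate 1 (0.43) and without posterior replicate 2 (0.30).

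Kcna6, another Kv1 subunit, had 3 tested probes. ILMN_3163078 read 7.46 and 8.01 in anterior and 7.21 and 7.18 in posterior lobes, a difference of −0.54 ± 0.19 with an adjusted p of 0.44, and the anterior arrays lay further apart than the nearer of them from the posterior ones. It missed the criterion without anterior replicate 2 (−0.26), posterior replicate 1 (−0.55) or posterior replicate 2 (−0.53). The brighter ILMN_2596385 read 12.53 and 12.56 against 12.33 and 12.29, which did not overlap, but its −0.24 was short of the fold threshold. The third, ILMN_2760927, read 11.62 and 11.58 against 11.63 and 11.60, a difference of 0.01 (95% interval −0.17 to 0.20).

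Kcnd2, the A-type channel of granule neurons to which the Kcnip proteins bind, had 1 of 2 probes past the criterion. ILMN_2625435 read 10.65 and 10.76 in anterior and 10.48 and 10.38 in posterior lobes, a difference of −0.27 ± 0.10 with an adjusted p of 0.45. Its lobes did not overlap, but the call was kept only without anterior replicate 1. The difference was −0.22 without anterior replicate 2, −0.33 without posterior replicate 1 and −0.22 without posterior replicate 2. The brighter ILMN_2644229 read 12.07 and 11.76 against 11.82 and 11.92, which overlapped, with a difference of −0.05 (95% interval −0.33 to 0.24). Kcnd3, a further Kv4 pore, read 7.12 and 7.02 against 7.26 and 7.25, a difference of 0.18 (−0.06 to 0.42).

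The Kcnc (Kv3) channels, which let Purkinje cells and other neurons fire at high rates, had no probe past the criterion. Kcnc1 read 12.58 and 12.82 in anterior and 12.70 and 12.76 in posterior lobes, a difference of 0.04 with an interval from −0.20 to 0.27. Its lobes overlapped. Kcnc4 had the largest positive difference of the Kv pore genes, 0.45 on ILMN_2771095, which read 11.84 and 11.23 against 12.12 and 11.86. Its lobes did not overlap, but its interval ran from −0.05 to 0.96. Its other probe had 0.17. Kcna1, mutated in episodic ataxia, read 10.21 and 9.24 in anterior and 10.01 and 9.69 in posterior lobes, and the wide spread between its anterior arrays left an interval from −0.65 to 0.90 around 0.13.

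All 4 tested probes of the ether-a-go-go (Kcnh) channels had negative differences, with a median of −0.25, and 2 passed the criterion. Kcnh3, a forebrain-enriched member also called Elk2, was the only potassium channel probe detected on both arrays of one lobe and on neither of the other. It read 7.30 and 7.33 in anterior lobes, and 6.72 and 6.88 in posterior lobes, where it was not above background. It was at least 1.198-fold higher in anterior, just short of the fold threshold of 1.2. This bound was set against the dimmest detected probes of the posterior arrays or its own signal, whichever was brighter. The probe entered the test only through the anterior arrays, so its call in limma (adjusted p of 0.20) leans on that filter. Over the whole chip 295 probes were detected in this way in anterior lobes alone and 97 in posterior lobes alone. Kcnh3 passed the criterion without either posterior array. Without either anterior array it was detected too rarely to be tested. Kcnh1 (Eag1) read 10.58 and 10.57 against 10.41 and 10.12, a difference of −0.30 ± 0.12 with an adjusted p of 0.49. This rested on posterior replicate 2, without which it was −0.16 and not past the criterion. Kcnh2 (Erg1) had −0.09 and −0.20 on its 2 probes.

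Kcnj6 encodes GIRK2, the inward rectifier that G proteins open after GABA-B or muscarinic receptors are activated, and its probes went in opposite directions. ILMN_1256457 read 7.92 and 7.70 in anterior and 8.71 and 8.60 in posterior lobes, a difference of 0.84 ± 0.13 (SE), 1.80-fold higher in posterior with an adjusted p of 0.13 in limma. This was the largest positive difference of any potassium channel probe, and it passed the criterion whichever array was left out. ILMN_3162725 read 8.91 and 9.53 against 8.34 and 8.79, a difference of −0.66 ± 0.25 with an adjusted p of 0.46. ILMN_1257700 read 9.41 and 10.13 against 9.31 and 8.99, a difference of −0.62 ± 0.25 with an adjusted p of 0.50. On these lower probes anterior replicate 2 was the brightest array, and the calls were less stable. The first missed the criterion without anterior replicate 2 (−0.35) or posterior replicate 1 (−0.43). The second missed it without anterior replicate 2 (−0.26), posterior replicate 1 (−0.78) or posterior replicate 2 (−0.46).

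The remaining tested Kcnj6 probes did not pass the criterion. ILMN_3112363 read 8.93 and 9.51 against 8.87 and 8.61, a difference of −0.48 (95% interval −1.01 to 0.05), and ILMN_3038066 read 7.29 and 7.89 against 7.46 and 7.23, a difference of −0.25 (−0.77 to 0.27). So 4 of 5 tested probes had negative differences and 1 a positive one, and a single Kcnj6 value for the lobes cannot be given. Another Kcnj6 probe was detected on no array. Kcnj6 is known to give several transcripts, but the sequences of the probes were not analysed here, so which transcript each probe reads is not known.

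**Figure D3:**
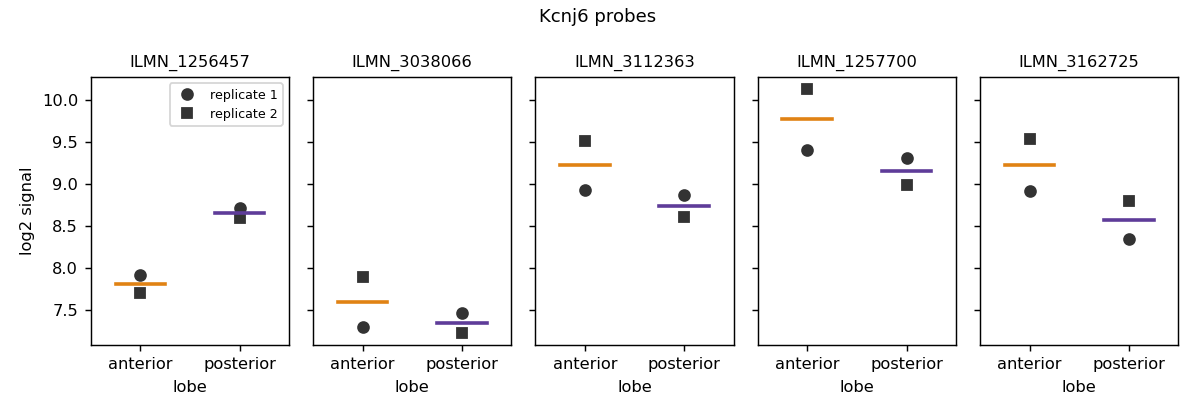
Log2 signal of the 5 tested Kcnj6 probes, 1 panel each on a common axis, in anterior and posterior lobes, with circles for replicate 1, squares for replicate 2 and a bar at the mean of the lobe. ILMN_1256457 is higher on both posterior arrays, whereas the other probes have lower posterior means.

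RefSeq places Kcnj6 transcripts at distinct starts, and the stretches around both are printed because the probes disagree, with the same marks as above.
Kcnj6, start A, chr16:94856641-94856940, minus strand: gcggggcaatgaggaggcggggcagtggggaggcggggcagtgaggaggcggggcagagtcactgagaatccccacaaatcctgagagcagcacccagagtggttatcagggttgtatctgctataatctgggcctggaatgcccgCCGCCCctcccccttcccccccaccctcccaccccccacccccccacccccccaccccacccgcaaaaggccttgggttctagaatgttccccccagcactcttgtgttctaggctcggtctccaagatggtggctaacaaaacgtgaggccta
Kcnj6, start B, chr16:94997647-94997946, minus strand: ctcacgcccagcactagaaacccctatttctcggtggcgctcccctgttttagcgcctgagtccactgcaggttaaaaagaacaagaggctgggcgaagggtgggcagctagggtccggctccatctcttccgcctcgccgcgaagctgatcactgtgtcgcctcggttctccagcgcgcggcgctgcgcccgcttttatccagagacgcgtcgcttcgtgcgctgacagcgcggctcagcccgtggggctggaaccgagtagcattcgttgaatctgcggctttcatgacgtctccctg
Start A has a GC content of 63.3%, 9 CpG pairs (56.5% of all promoters have as many or fewer) and 1 GC box, marked on the opposite strand. Start B has a GC content of 62% and 30 CpG pairs (89.4%), and none of the 4 motifs.

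The other inward rectifiers had no probe past the criterion, and the group of 10 probes had a median of −0.25. Kcnj3 (GIRK1), the usual partner of GIRK2, read 9.30 and 9.82 in anterior and 9.17 and 9.35 in posterior lobes, a difference of −0.30 with an interval from −0.77 to 0.18. Kcnj10, the buffering channel of astrocytes, Bergmann glia and oligodendrocytes, read 7.87 and 7.67 against 7.80 and 7.60, a difference of −0.07 (−0.40 to 0.25). Its partner Kcnj16 did not overlap between lobes, at 7.81 and 7.86 against 7.62 and 7.55, with −0.24 (−0.51 to 0.02). Kcnj8, the pore of the potassium-ATP channel of pericytes, read 8.01 and 7.81 against 8.12 and 7.89, a difference of 0.10 (−0.24 to 0.44). Kcnj12 had 0.23 (−0.09 to 0.56).

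Tandem-pore leak channels as a group stood near 0, with a median of 0.0036 over 12 probes, 1 higher and 1 lower past the criterion. Kcnk5 (TASK2) read 7.08 and 7.02 in anterior and 7.35 and 7.52 in posterior lobes, a difference of 0.39 ± 0.11 (1.31-fold) with an adjusted p of 0.34, close to the dim end of the detected range. Without posterior replicate 2 it had 0.31 and missed the criterion. Kcnk13 (THIK1), known for the resting potential of microglia, read 8.43 and 8.47 against 8.09 and 8.15, a difference of −0.33 ± 0.11 with an adjusted p of 0.43. It missed the criterion without posterior replicate 1 (−0.30) or posterior replicate 2 (−0.36). The lobes did not overlap for either gene, as for 42.6% of all tested probes.

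Kcnk3 (TASK1) and Kcnk9 (TASK3), known for the resting conductance of granule neurons, were not past the criterion. Kcnk3 read 8.16 and 8.57 in anterior and 8.39 and 8.17 in posterior lobes, a difference of −0.08 with an interval from −0.52 to 0.35. Kcnk9, which was detected on 3 arrays, read 7.22 and 6.89 against 7.10 and 7.21, a difference of 0.10 (−0.23 to 0.44). The lobes overlapped in both, and these intervals still allow changes larger than 1.2-fold. Kcnk1 (TWIK1), a weak inward-rectifying leak channel, read 11.55 and 11.72 against 11.58 and 11.71 on ILMN_2777530, a difference of 0.0086 (−0.23 to 0.24). On ILMN_3009501 it read 12.90 and 13.06 against 12.92 and 13.10, a difference of 0.03 (−0.20 to 0.25). For this gene both intervals stayed within 1.2-fold. Kcnk2 (TREK1), a leak channel opened by stretch, had 10.87 and 10.81 against 10.88 and 10.89 on ILMN_1226055, a difference of 0.05 (−0.16 to 0.25). On ILMN_2651369 it had 7.81 and 7.50 against 7.29 and 7.59, a difference of −0.21 (−0.61 to 0.18).

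M-current channels (Kcnq), which hold neurons back from repetitive firing, had no probe past the criterion among 8, and a median of −0.018. Kcnq3, a subunit of the neuronal M channel, read 7.30 and 7.48 in anterior against 7.37 and 7.56 in posterior lobes, a difference of 0.07 (−0.23 to 0.38). Kcnq5, a further M-current subunit, had 0.25 (−0.70 to 1.19) on ILMN_2558387 and 0.19 (−0.12 to 0.50) on ILMN_2798606. The former read 9.81 and 9.06 against 10.20 and 9.17, so that replicate 1 was the brighter array in either lobe. Its sign turned without anterior replicate 2 (−0.13) and without posterior replicate 1 (−0.27).

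Probes of one gene did not always go together. Of the 17 genes with several tested probes, 9 had all differences of one sign, Kcng4, Kcnma1 and Kcnt1 among them with every tested probe past the criterion. The other 8 had differences of both signs, and of those only Kcnj6 had probes past the criterion in both directions. The remaining 34 genes rested on 1 tested probe.

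Members left untested were dim rather than shown to be absent. Of the 165 probes, 81 were detected on no array, and 38 genes had no tested probe. They include Kcna4, Kcnc2, Kcnn2 and Kcnn3, Kcnj2, Kcnj5, Kcnj9 and Kcnj11, Kcnh7, and Kcnq1, and nothing is said about the lobes for them. Of the 77 tested probes, 71 were detected on all 4 arrays.

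Among other genes that handle potassium or build the channel complexes, 4 had a probe past the criterion. Of 38 such genes listed, 28 had a tested probe, and of their 41 probes 1 was higher and 4 were lower past the criterion, 12.2% against 8.29% of all probes, with a median of −0.047. Cntnap2 (Caspr2), which gathers Kv1 channels beside the node of Ranvier, had differences of −0.36 and −0.32 on 2 probes past the criterion, and of 0.19 (−0.13 to 0.51) on another that was not. Lgi3, a secreted protein of the family of Lgi1, had −0.39, and Atp1b2, the glial beta subunit of the sodium-potassium pump, had −0.36. Dlg2 (PSD-93), a scaffold for Kv1 channels, was the one with a higher probe, at 0.33. The Kv4 partners Dpp6 and Dpp10 had no probe past the criterion.

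Of the cell type marker lists, those of oligodendrocytes and meningeal fibroblasts had most of their tested probes past the criterion. Of 21 tested probes of 10 oligodendrocyte genes, all of which were tested, 19 were lower in posterior past the criterion, with a median of −1.02, larger than any potassium channel difference except those of Kcng4. Their summed intensity was 128668 and 126677 on the anterior arrays and 87832 and 81576 on the posterior arrays. Of 9 probes of 6 meningeal fibroblast genes 6 were higher, with a median of 0.51 and sums of 15683 and 17644 against 23899 and 27717. A Dcn probe among the higher ones, ILMN_1254458, was tested only through the posterior arrays, since neither anterior array detected it. As a bound it was at least 1.226-fold higher in posterior. The part of either marker list in the potassium channel results was not tested.

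Markers of neurons and the remaining lists had from 0 to 2 probes past the criterion each. Of 11 Purkinje cell probes none passed the criterion, with a median of −0.12 and sums of 83413 and 86651 in anterior against 77852 and 77306 in posterior lobes, although Calb1 and Car8 had no tested probe. Of 9 granule neuron probes 2 were higher, a Zic2 probe (0.72) and that of Grin2c, with sums of 42108 and 42256 against 43077 and 41474. The other Zic2 probe had 0.14 and did not pass. Calb2, among the unipolar brush cell markers, had both of its probes higher, 2 of 6 for that list, with sums of 15160 and 16807 against 19226 and 18628. None of the 12 probes of Bergmann glia and astrocytes, the 6 of microglia, the 8 of pericytes, the 7 of granule progenitors or the 4 of inhibitory interneurons passed the criterion. Of 7 endothelial probes only a Cdh5 probe (0.46) was higher, and the other Cdh5 probe had 0.20 and did not pass. Of 4 choroid plexus probes a Prlr probe (0.52) was higher and Clic6 lower, while the other tested Prlr probe had 0.20 and did not pass. The sum of this list, from 3 of 6 genes, was far higher on anterior replicate 2 (11569) than on the other arrays (1222 to 4664). Their part in the potassium channel results was not tested either.

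**Figure D4:**
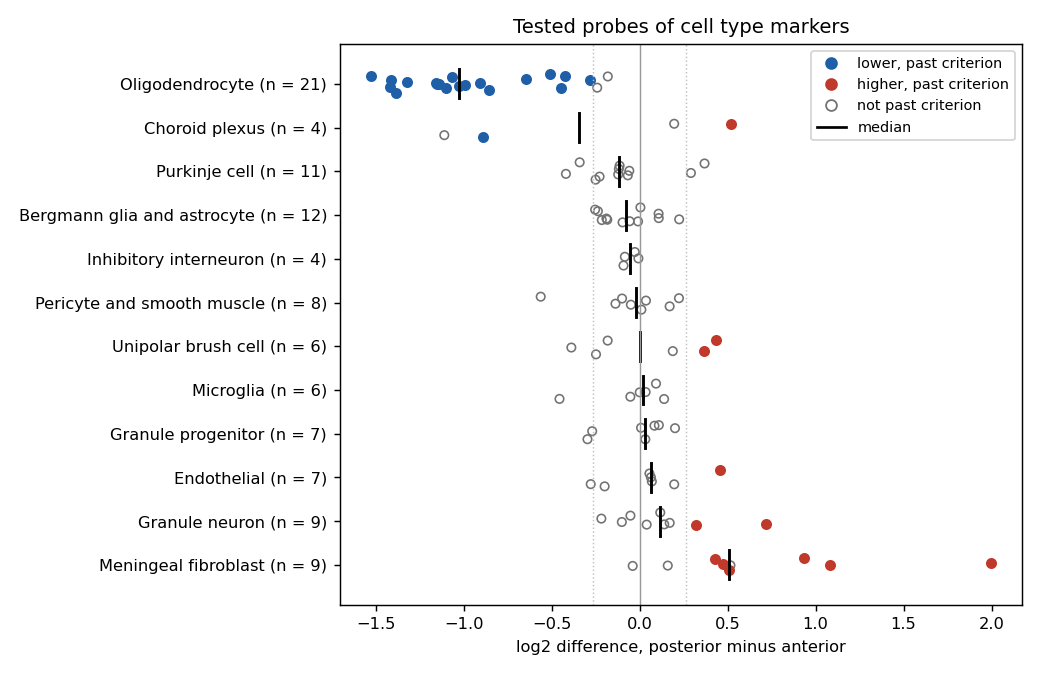
Difference between lobes (posterior minus anterior, log2 scale) of each tested probe of the cell type marker lists, with n the number of probes, filled points past the study's criterion and black bars at the medians. Oligodendrocyte probes lie to the left, with a median of −1.02, and meningeal fibroblast probes to the right, with a median of 0.51.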

How the data were processed

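Anterior and posterior cerebellar lobes of PN7 Swiss mice, 2 samples each, were hybridized to Illumina MouseWG-6 arrays, 1 array per sample. The authors deposited, for every probe on every array, an intensity averaged over beads, the bead SD and the bead number, as the scanner software wrote them with normalization switched off. The deposited detection score is a fraction, 1 minus the detection p-value. A further 16 columns of values were not used. The floor of 1 and the log2 scale of the study's methods were applied here, after quantile normalization between arrays, which those methods do not name. Between 46.5% and 47.6% of the probes of an array were detected, each from a median of 40 to 42 beads.

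Probes that at least 2 of 4 arrays detected, at a detection p-value under 0.05, were tested per lobe with limma 3.58.1 in R 4.3.3 (lmFit, eBayes with an intensity trend) and Benjamini-Hochberg adjustment, on every tested probe of the chip. The fit was tested on simulated data with 200 probes changed per run. Of these, 90 passed an adjusted p of 0.05 in limma at a 2-fold change and 0 at a 1.5-fold change. The lack of an adjusted call therefore does not exclude changes of that size. A probe that neither array of a lobe detected is given as a bound. Values were printed for each member past the criterion, the one with the largest difference per role, those detected in only one lobe, and members with a textbook place in the cerebellum. The members, roles, partner genes and marker lists were chosen with earlier results of these data known. Alternatives were other normalizations, neqc, other detection filters, no trend, a replicate block, the methods' t-test, leaving out each array, a 1.5-fold threshold and one probe per gene. RefSeq promoters (GRCm38.p6) were matched by symbol for 64 of 89 genes. Kcnb2, Kcnc4, Kcne1, Kcnh2, Kcnj12, Kcnn1, Kcnq5 and Kcnu1 were named beside them after their values were seen. The values of some members covered by the rule for printed values are not reported here. Array probe and protein sequences were not used here.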

Additional observations from a re-analysis of the deposited data

How the results depend on the processing

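The precision is limited by 2 arrays per lobe. The 21 members past the criterion became 12 with the methods' t-test (3.41% of all probes), 7 at 1.5-fold (1.79%), 12 of 51 with one probe per gene (7.92%) and 10 to 27 when each array was left out. They numbered 16 to 25 under the other settings, where 5.51% to 13% of all probes passed. The count past the adjusted p, 0 as reported, was 2 without normalization (0.566% of all probes), 1 without the filter on dim probes (0.161%), 9 with a replicate block (2.71%) and 0 to 19 when each array was left out. The median of −0.091 was −0.0515 with the 75th percentile shift, −0.103 with neqc, −0.0188 without the filter and −0.1166 to −0.0723 when each array was left out. The replicate numbers are shared by the lobes, and replicate 1 minus 2 correlated between them at 0.458 over all probes (0.377 over the members). With only 2 pairs this does not establish pairing. With the replicate block 8 partner probes passed the criterion in place of 5, while the share of all probes went from 8.29% to 13%. The adjusted p in that limma fit was 3.5e-05 and 4.3e-04 for Kcng4, 0.0048 for the higher Kcnj6 probe and 0.012 for Kcnip1.

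Several printed differences changed sign when one array or another was left out, none of them past the criterion as reported. The ranges were −0.36 to 0.61 for Kcna1, −0.0045 to 0.032 for Kcna6 ILMN_2760927, −0.19 to 0.0075 for Kcnb2, −0.084 to 0.15 for Kcnc1, −0.20 to 0.10 for Kcnd2 ILMN_2644229, −0.17 to 0.027 for Kcnj10, −0.55 to 0.051 for Kcnj6 ILMN_3038066, and −0.013 to 0.21 for Kcnj8. They were −0.080 to 0.097 for Kcnk1 ILMN_2777530, which was −0.0009 without normalization, −0.062 to 0.12 for Kcnk1 ILMN_3009501, −0.29 to 0.12 for Kcnk3, −0.061 to 0.27 for Kcnk9, −0.26 to 0.15 for Kcnmb4 ILMN_3028187, −0.077 to 0.094 for Kcnmb4 ILMN_3101339, −0.026 to 0.17 for Kcnq3 and −0.27 to 0.76 for Kcnq5 ILMN_2558387. The cause was not tested. The alternatives chosen were all run.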
